A study of Mus musculus with 8 samples.

Results

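The genes described here carry the symbols of proteins of the mitochondrial ribosome. They were chosen by symbol: every protein-coding gene whose mouse RefSeq symbol starts with Mrpl (large subunit) or Mrps (small subunit) followed by a digit, matched to the array through the accession of each probe. This gave 78 genes, 49 of the large and 29 of the small subunit, among 42985 features tested in all. The array held 84 probes for them, 1 probe for 72 genes and 2 probes for 6 genes, and 6 pseudogene symbols were left out. All 78 genes were well above background on all 8 arrays and passed the filter on dim probes, so none was lost to it.

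The study compared livers of male mice of a pair of recombinant congenic strains on the NZO background, an obese and diabetes-prone mouse strain, with C57BL/6J as the crossing partner. The NB group (4 arrays, NB 2, 3, 5 and 8) carried the genotype written Ltg/NZO.5.3N/B, and the NN group (4 arrays, NN 1, 4, 6 and 7) the genotype written Ltg/NZO.5.3N/N. Per the labels the strains differ in a segment of 5.3 Mbp on chromosome 18, and mice of both groups ate a diet with 45% fat up to week 5. The age is given as 5 weeks in another label, so whether week 5 counts from birth or from the start of the diet is not settled. None of the mitochondrial ribosomal protein genes lies on that chromosome: the 78 genes are spread over 17 others, with 11 on chromosome 11, 8 on chromosome 17 and 7 on chromosome 6. Since no label says that every array came from its own mouse, the p-values reflect only how far these samples varied, and 4 arrays a group limit the precision.

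Mitochondria keep their own ribosome, which translates the few proteins encoded by mitochondrial DNA, all of them subunits of the respiratory chain and the ATP synthase. Its RNA comes from the mitochondrial genome, whereas every one of its proteins is encoded in the nucleus, made in the cytosol and imported. Some of these proteins descend from bacterial ribosomal proteins, and others were added during the evolution of mitochondria. The liver, with its heavy load of fat oxidation and biosynthesis, is rich in mitochondria, and in humans inherited defects of several of these proteins cause combined deficiencies of the respiratory chain.

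Because the genes share a product rather than a location, their promoters are the sequences that place them in common. RefSeq promoters (assembly GRCm38.p6, 250 bases before to 50 after the start of each gene) were at hand for 69 of the 78 genes, 75 promoters in all since 3 genes had several. They were searched on both strands for the letters of motifs bound by nuclear respiratory factor 1 (NRF1, the letters GCGC, any base, then TGCGC), by ETS factors such as GABP, also known as nuclear respiratory factor 2 (CCGGAAG), and by YY1 (AANATGGCG), factors known to act on nuclear genes of mitochondrial function. The NRF1 letters stood in promoters of 13 genes (18.8%), against 7.17% of the 17492 protein-coding genes with a listed promoter. The ETS letters stood in 26 (37.7%, against 12.9%) and the YY1 letters in 11 (15.9%, against 3.64%). At least 1 of these 3 motifs stood in 42 of the 69 genes (60.9%, against 20.9% of all), and 8 genes held 2 of them (11.6%, against 2.75% holding at least 2). No matches of different motifs among the 3 overlapped. The general Sp1 letters (GGGCGG) were as frequent as elsewhere, in 49.3% against 49.2%, and the TATA letters (TATAAA) stood in 7.25% against 14.8%. A match is a description of letters and not a bound site, and these shares were not tested.

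Promoters of 6 genes show the range of these arrangements, each printed 5′ to 3′ on the strand of its gene with the motif letters in capitals. Mrpl12 (chr11:120484387-120484686, plus strand) holds NRF1 letters starting 81 bases before the start. Mrps12 (chr7:28741772-28742071, minus strand) holds ETS letters at the first base after it. Mrps26 (chr2:130563507-130563806, plus strand) holds ETS letters and 2 NRF1 matches that overlap each other, and Mrps27 (chr13:99344536-99344835, plus strand) holds ETS letters before and YY1 letters after its start. Mrps11 (chr7:78782881-78783180, plus strand) and Mrpl46 (chr7:78783040-78783339, minus strand) are neighbours read in opposite directions from starts 42 bases apart. The YY1 letters lie in the window of Mrps11, and none of the 3 motifs in that of Mrpl46.
Mrpl12: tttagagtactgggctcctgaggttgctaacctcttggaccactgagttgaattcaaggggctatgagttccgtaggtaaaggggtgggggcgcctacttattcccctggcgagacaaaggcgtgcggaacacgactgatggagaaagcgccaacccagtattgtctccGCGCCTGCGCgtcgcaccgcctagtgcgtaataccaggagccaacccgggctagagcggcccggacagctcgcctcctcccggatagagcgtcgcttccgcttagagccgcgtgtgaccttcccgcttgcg
Mrps12: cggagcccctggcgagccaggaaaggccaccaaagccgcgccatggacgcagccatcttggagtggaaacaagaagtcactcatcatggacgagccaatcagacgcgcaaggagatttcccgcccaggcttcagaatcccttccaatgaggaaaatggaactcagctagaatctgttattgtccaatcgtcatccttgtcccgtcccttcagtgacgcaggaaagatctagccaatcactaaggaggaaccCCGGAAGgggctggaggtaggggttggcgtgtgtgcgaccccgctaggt
Mrps26: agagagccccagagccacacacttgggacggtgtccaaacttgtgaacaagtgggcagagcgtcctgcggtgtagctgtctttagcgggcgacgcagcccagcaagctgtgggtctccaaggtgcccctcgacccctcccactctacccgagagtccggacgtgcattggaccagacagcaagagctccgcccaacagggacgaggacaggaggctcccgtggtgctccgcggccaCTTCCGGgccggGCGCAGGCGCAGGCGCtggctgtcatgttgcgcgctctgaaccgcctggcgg
Mrps27: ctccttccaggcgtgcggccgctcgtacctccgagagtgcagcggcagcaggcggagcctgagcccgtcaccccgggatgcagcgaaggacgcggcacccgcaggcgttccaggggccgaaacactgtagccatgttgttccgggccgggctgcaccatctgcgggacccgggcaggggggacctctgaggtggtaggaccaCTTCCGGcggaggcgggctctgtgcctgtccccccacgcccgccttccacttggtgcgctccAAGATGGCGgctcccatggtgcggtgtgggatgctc
Mrps11: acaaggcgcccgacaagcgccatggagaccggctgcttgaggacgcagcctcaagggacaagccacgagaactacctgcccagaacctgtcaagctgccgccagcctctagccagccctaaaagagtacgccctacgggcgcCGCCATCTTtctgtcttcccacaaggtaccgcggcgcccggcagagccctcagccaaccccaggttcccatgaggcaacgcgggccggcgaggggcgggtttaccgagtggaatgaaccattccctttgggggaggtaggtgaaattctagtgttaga
Mrpl46: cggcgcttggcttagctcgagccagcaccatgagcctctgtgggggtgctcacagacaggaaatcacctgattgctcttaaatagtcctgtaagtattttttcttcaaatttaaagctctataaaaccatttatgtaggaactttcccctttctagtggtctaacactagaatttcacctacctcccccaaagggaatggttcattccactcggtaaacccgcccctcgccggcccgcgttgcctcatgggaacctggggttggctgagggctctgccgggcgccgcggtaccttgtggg

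Such head-to-head pairs were common among these genes: 24 of the 69 (34.8%) had a neighbour starting in the opposite direction within 1000 bases, against 8.48% of all protein-coding genes with a listed promoter. The partners include Sars2, the mitochondrial seryl-tRNA synthetase, 147 bases from Mrps12, Twnk, the helicase that replicates mitochondrial DNA, 116 bases from Mrpl43, and Ndufb5, a subunit of complex I, 308 bases from Mrpl47. Of the 23 partners measured, none passed the test between the genotypes (background 0.00698% of all features). They include the members Mrpl46 and Mrps11, each the partner of the other. The smallest p among the partners was that of Ndufb5, with a log2 difference (NB minus NN) of −0.17 ± 0.07 (SE, limma unadjusted p = 0.0553).

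**Figure D1:**
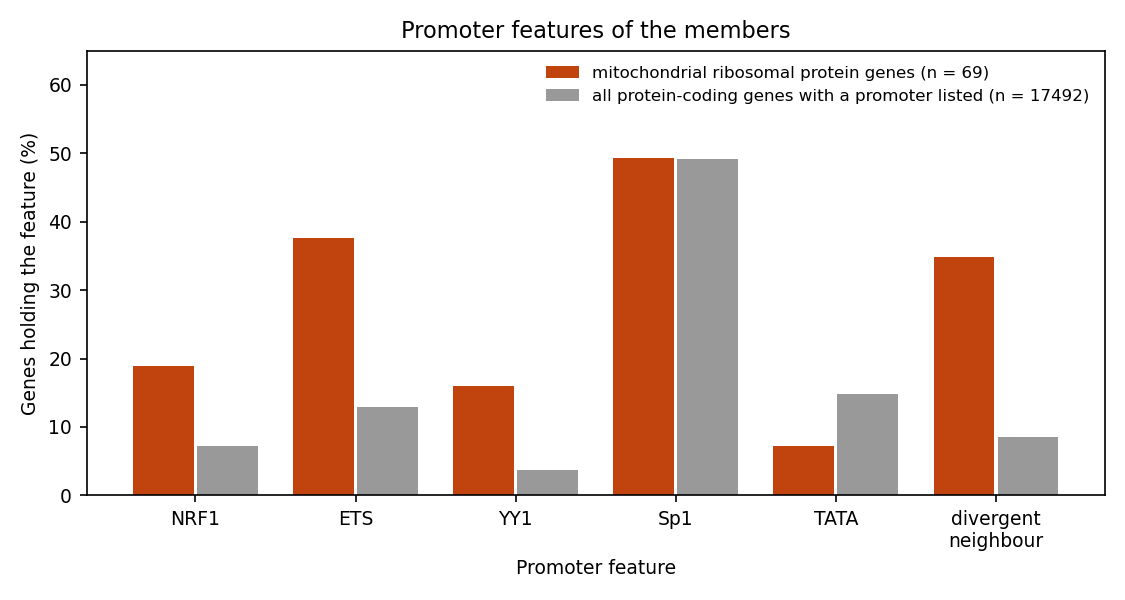
Share of genes (%) whose listed promoter holds the letters of each motif, or that have a divergent neighbour within 1000 bases, for 69 mitochondrial ribosomal protein genes (orange) and 17492 protein-coding genes (grey). NRF1, ETS and YY1 letters and divergent neighbours were more frequent among the mitochondrial ribosomal protein genes, Sp1 letters equally frequent and TATA letters less so.

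No mitochondrial ribosomal protein gene differed between NB and NN livers beyond the spread between arrays. None of the 78 passed an adjusted p of 0.05 in limma (background 0.00698% of all features), and none reached an unadjusted p under 0.05 (background 1.69%). In no gene were the 4 NB values separate from the 4 NN values (background 1.16%). The fold changes were small, from −0.19 (Mrps2) to 0.06 (Mrpl2) on the log2 scale, given as NB minus NN. The 95% interval of the difference lay within 1.5-fold either way for all 78 genes (82.3% of all features) and within 1.2-fold for 55 of them (70.5%, against 26.5%). The spread between arrays of a genotype was low for these genes, with a median residual SD of 0.099 log2 units against 0.172 over all features and 0.155 over named genes. This was not particular to them. The median was 0.079 for ribosome subunits with other symbols, 0.095 for translation factors, and 0.112 for both assembly factors and cytosolic ribosomal proteins. Of 80 cytosolic ribosomal protein genes, 61 had an interval within 1.2-fold. In whole liver RNA, fewer cells of a type and less RNA per cell cannot be told apart.

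**Figure D2:**
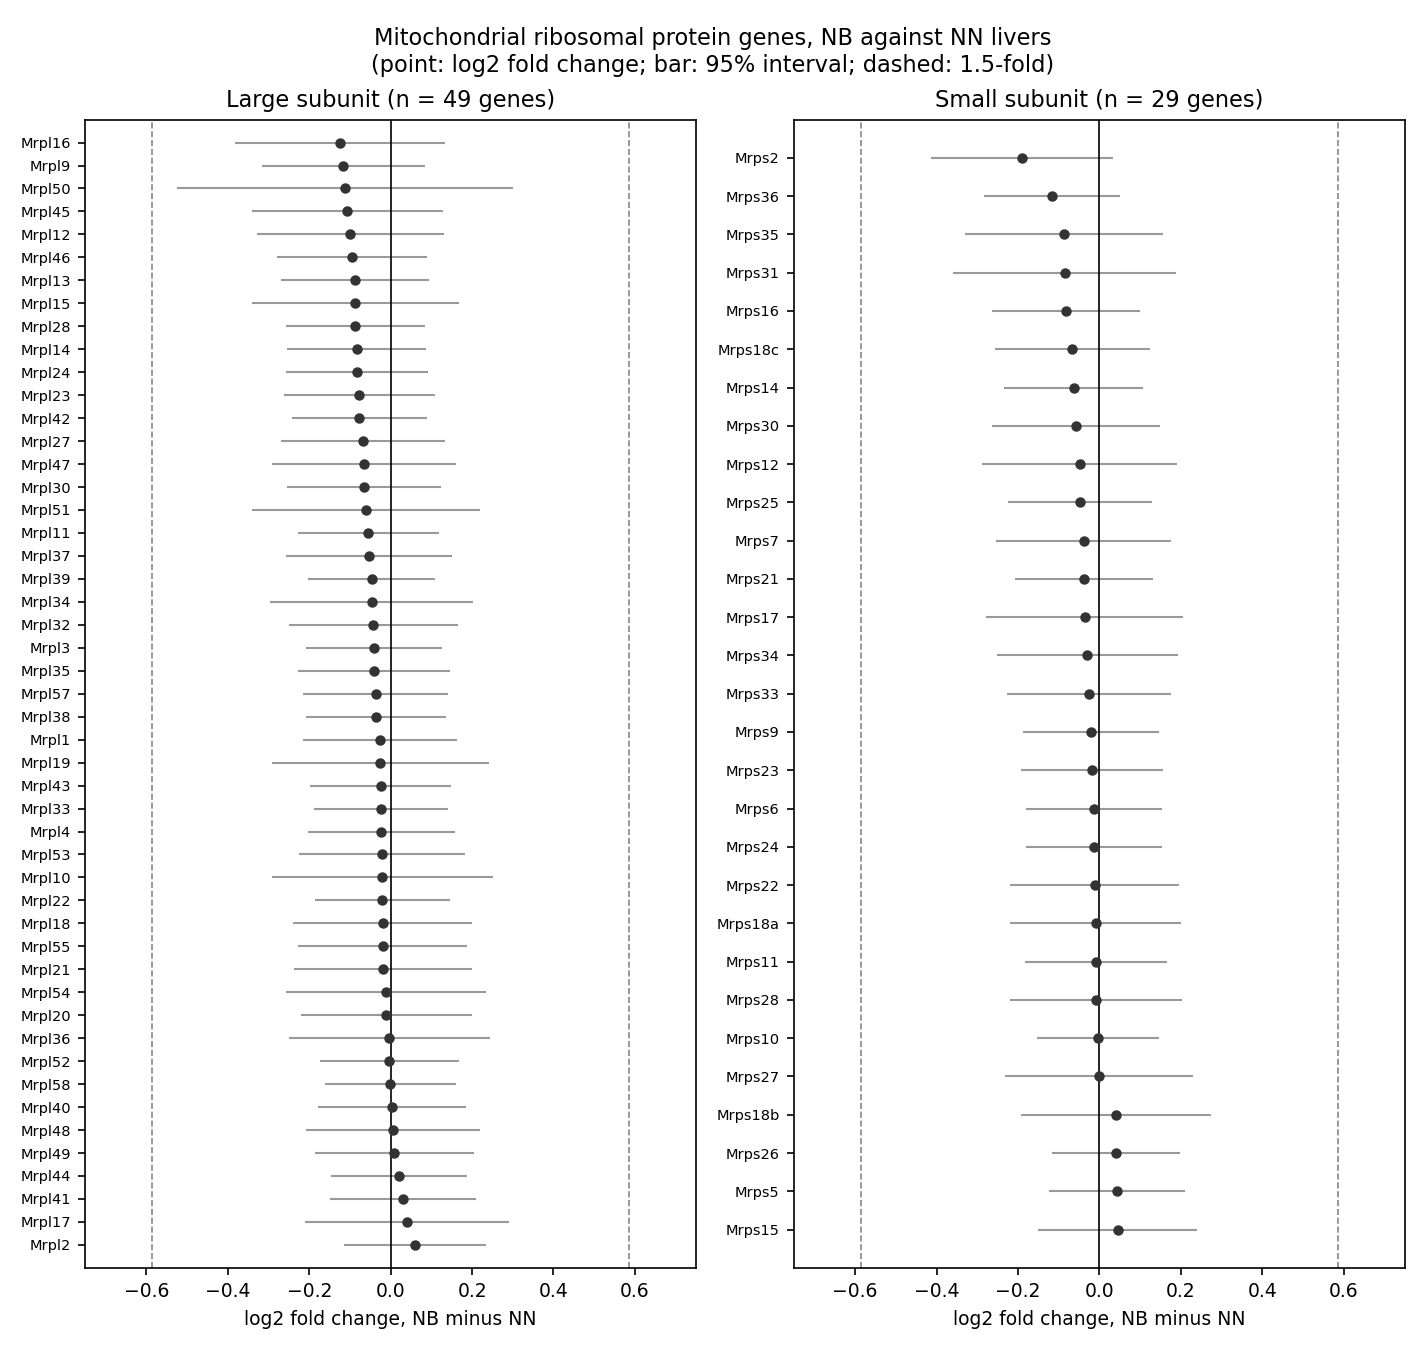
Log2 fold change (NB minus NN) of each of 49 large subunit genes (left) and 29 small subunit genes (right), with its 95% interval from limma on 4 NB and 4 NN arrays. Every interval crosses 0 and stays within the dashed lines at 1.5-fold, and most points lie slightly to the left of 0.

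Most of the estimates lay slightly below 0. In the large subunit 42 of 49 were negative with a median of −0.037, and in the small subunit 25 of 29 with a median of −0.025. Together 67 of the 78 were negative (85.9%), beside 54.1% of all features, whose median was −0.0097. Without the array NB 2 the count was 41 of 78 (52.6%, beside 53.4% of all features), and on the authors' own normalized values it was 45 of 78 (57.7%, beside 49.2%). The genes share arrays, so their signs are not independent and carry no test.

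Ordered by place in the ribosome, the 3 proteins of the stalk that recruits translation factors, Mrpl10, Mrpl11 and Mrpl12, had a median of −0.055 with all 3 below 0. In the whole large subunit 85.7% lay below 0. The regions were chosen after values were seen, and differences between them were not tested. Mrpl12, which also binds the mitochondrial RNA polymerase, had log2 signals relative to the array's 75th percentile of 4.55, 4.74, 4.74 and 4.98 in NB livers, against 4.81, 4.79, 4.86 and 4.95 in NN livers. NB 2 was the lowest and NB 8 the highest of the 8, so the NB values enclosed all the NN values, and the difference of −0.10 ± 0.10 (SE) did not pass the test (limma adjusted p = 1.00). Its partners differed by less, Mrpl11 by −0.05 ± 0.08 and Mrpl10 by −0.02 ± 0.12.

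The genes of the catalytic core, here Mrpl2, Mrpl3, Mrpl16 and Mrpl27, had 3 of 4 estimates below 0 and a median of −0.054. Mrpl3, of which mutations in humans cause cardiomyopathy with respiratory chain deficiency, had 1.64, 1.63, 1.63 and 1.62 in NB livers, against 1.81, 1.67, 1.59 and 1.63 in NN livers. NN 1 alone stood above the rest, and the difference was −0.04 ± 0.07 (SE). Mrpl2, the counterpart of the bacterial protein at the peptidyl transferase centre, had the highest estimate of all members, with 4.11, 3.98, 3.93 and 3.95 in NB livers, against 4.02, 3.85, 3.89 and 3.97 in NN livers. These ranges overlapped and the difference was 0.06 ± 0.08 (SE, limma adjusted p = 1.00).

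Of 6 genes placed around the exit tunnel, 5 lay below 0 with a median of −0.071. Mrpl45, which anchors the ribosome to the inner membrane where its products are inserted, had 1.00, 1.21, 1.22 and 1.36 in NB livers, against 1.17, 1.24, 1.48 and 1.32 in NN livers, a difference of −0.11 ± 0.10 (SE). The lowest value was that of NB 2 and the highest that of NN 6, with the others mixed. The 7 genes of the central protuberance, which contacts the transfer RNAs, had a median of −0.020 with 5 below 0. Among them Mrpl58, a peptidyl-tRNA hydrolase that became a ribosomal protein and can release stalled chains, averaged 1.28 ± 0.05 in NB livers and 1.28 ± 0.07 in NN livers (SD, n = 4 each). The ranges overlapped almost fully, and the interval of the difference ran from −0.16 to 0.16.

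The smallest p in the large subunit belonged to Mrpl9, a counterpart of a bacterial protein. It had 1.36, 1.37, 1.29 and 1.32 in NB livers, against 1.63, 1.49, 1.29 and 1.40 in NN livers. NN 1, NN 4 and NN 7 were above every NB array while NN 6 was level with the lowest NB array, and the difference of −0.12 ± 0.09 (SE) had an unadjusted p = 0.220 in limma (adjusted p = 1.00). Mrpl44, with a fold like that of RNase III, differed by 0.02 ± 0.07. Mrpl50 varied most between arrays, with a residual SD of 0.290. It had 4.11, 4.33, 3.88 and 3.58 in NB livers, against 4.44, 3.99, 3.83 and 4.09 in NN livers. NB 8, on which most other members lay above their mean, was here the lowest, and the interval of the difference ran from −0.52 to 0.30, the widest of all members.

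In the small subunit the 8 genes of the head all lay below 0, with a median of −0.032, and so did the 4 of the platform, with a median of −0.026. In the whole small subunit 86.2% lay below 0, so these counts do not set the regions apart. Without NB 2 only 13 of the 29 small subunit genes lay below 0. Mrps2, a counterpart of the bacterial protein S2 whose defects in humans cause respiratory chain deficiency, had the smallest p of all members. Its values were 1.56, 1.17, 1.28 and 1.34 in NB livers, against 1.55, 1.62, 1.48 and 1.45 in NN livers. NB 3, NB 5 and NB 8 lay below every NN array, and NB 2 lay among them. The mean was 1.34 ± 0.17 in NB livers and 1.53 ± 0.08 in NN livers (SD, n = 4 each), a difference of −0.19 ± 0.098 (SE, limma unadjusted p = 0.0865, adjusted p = 1.00). Without NB 2 the difference was −0.27 ± 0.08 (SE) with a limma unadjusted p = 0.0130, still with an adjusted p = 1.00. This is the extreme of all members under all settings, in both p and size, and it leaves out the NB array that lay among the NN values.

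Mrps36 came next. It keeps its ribosomal symbol but is now known as a component of the 2-oxoglutarate dehydrogenase complex of the citric acid cycle, and by its symbol it stays in all counts of the small subunit and of the mitochondria-specific genes given here. It had 2.37, 2.37, 2.47 and 2.53 in NB livers, against 2.58, 2.52, 2.50 and 2.61 in NN livers. NB 8 alone reached into the NN range, and the difference was −0.12 ± 0.07 (SE, limma unadjusted p = 0.147, adjusted p = 1.00).

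Mrps12, the counterpart of the bacterial S12 protein that guards decoding accuracy, had 4.40, 4.57, 4.62 and 4.78 in NB livers, against 4.55, 4.51, 4.77 and 4.73 in NN livers. Again NB 2 was the lowest and NB 8 the highest array, and the difference was −0.05 ± 0.11 (SE). Mrps5, near the entry of the messenger RNA and linked to lifespan in worms and to natural variation between mouse strains, had 2.79, 2.79, 2.67 and 2.81 in NB livers, against 2.70, 2.68, 2.68 and 2.83 in NN livers. The groups overlapped from end to end, with a difference of 0.04 ± 0.07 (SE).

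Of the small subunit genes mutated in human respiratory chain disease, Mrps16 differed by −0.08 ± 0.08, Mrps22 by −0.01 ± 0.09 and Mrps34 by −0.03 ± 0.10 (SE). Mrps16 had the widest gap of these, with 3.08, 3.25, 3.18 and 3.35 in NB livers, against 3.34, 3.24, 3.29 and 3.32 in NN livers. NB 8 lay above all NN arrays, and NB 2 and NB 5 lay below them. Mrps15 had the highest estimate of the small subunit, 0.04 ± 0.09. Mrps10 was the steadiest member, with a residual SD of 0.0395.

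**Figure D3:**
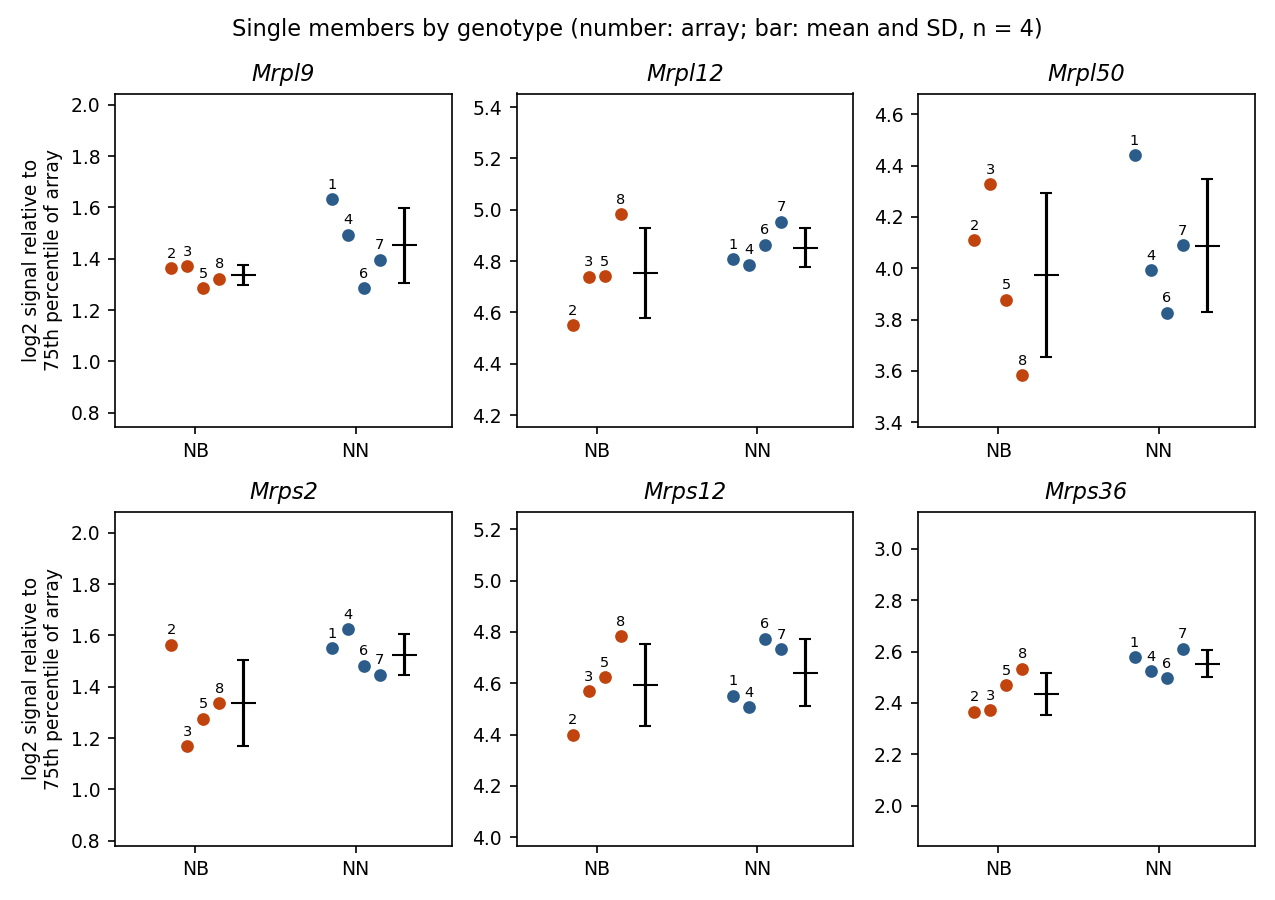
Log2 signal relative to the array's 75th percentile on each array for 6 genes, NB (orange) left of NN (blue), with the array's number beside each point and the mean and SD (n = 4) as a bar. Each vertical axis spans the same range of log2 units around its own gene. The genotypes overlap in all 6, and the spread within a genotype is widest for Mrpl50.

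Sorted by origin, 42 of the 46 genes with a bacterial counterpart had negative estimates (91.3%), with a median of −0.038. Of the 32 mitochondria-specific genes 25 did (78.1%), with a median of −0.024. Over all members the share was 85.9%, and over all features 54.1%. The median deviation on NB 2, on which the count of negative estimates depended, was −0.12 for the first class and −0.08 for the second. Mrps18a and Mrps30 sit in the large subunit of the solved structures despite their symbols. Moving both left medians of −0.037 in the large and −0.025 in the small subunit. The genes with NRF1 letters had a median of −0.043, against −0.024 without them. The order was the other way round for ETS letters (−0.021 with, −0.047 without) and for YY1 letters (−0.012 with, −0.036 without). The general Sp1 letters gave −0.024 with and −0.041 without. The median SE of a single member was 0.085, and none of these splits was tested. Of the 6 genes with 2 probes, the probes of 5 gave estimates of the same sign, and only those of Mrps23 differed, at −0.02 for the brighter and 0.01 for the dimmer probe.

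The members deviated together from array to array in both genotypes. Relative to each gene's mean over the 8 arrays, the median of the 49 large subunit genes was −0.10, −0.03, −0.02 and 0.07 on NB 2, 3, 5 and 8, and 0.03, −0.06, 0.03 and 0.07 on NN 1, 4, 6 and 7. The median of the 29 small subunit genes was −0.10, −0.05, −0.01 and 0.08 on the NB arrays, and −0.01, −0.06, 0.04 and 0.09 on the NN arrays. With this scaling, by the 75th percentile, NB 2 was lowest in both subunits, and NB 8 and NN 7, which share slide column 4, were highest. The order depended on the scaling. NB 3 was lowest with quantile scaling, at −0.071 in the large and −0.100 in the small subunit, and also with the authors' values, at −0.088 and −0.112. With the authors' values NN 6 lay above NN 7 in both subunits, and with normexp NN 1 lay above NB 8 in the large subunit. Each slide column held 1 array of each genotype, so taking the column as a block could not change a member's estimate. The count of 67 of 78 negative estimates with this block is therefore not a check on slide position. No member passed the test with it. Over all members the array medians averaged −0.021 ± 0.072 in NB livers and 0.016 ± 0.057 in NN livers (SD, n = 4 each), a gap smaller than either SD with the 75th percentile scaling.

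With the same scaling NB 2 was the lowest of the 8 arrays for 35 members (44.9%, against 18.1% of all features), and NB 8 or NN 7 was the highest for 53 (67.9%, against 24% of all features). Of the 78 genes, 65 lay above their own mean on NB 8, 25 on NB 3 and 18 on NB 2, against 73 on NN 7 and 19 on NN 4. With the authors' values these counts were 72 on NB 8, 10 on NB 3 and 26 on NB 2, against 60 on NN 7 and 30 on NN 4. NB 2 was also the array with the highest 75th percentile of signal, 584 units, where the others had 445 to 538. The cytosolic ribosomal proteins were likewise lowest on NB 2, with a median deviation of −0.19, and highest on NB 8, with 0.10, whereas the median over all features stayed between −0.012 and 0.030 on every array. With quantile scaling the cytosolic list stood at −0.11 on NB 2 and was lowest on NN 1, at −0.15, and NN 1 was also its lowest array with the authors' values. The part of signal scale and slide position in these shifts was not tested.

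**Figure D4:**
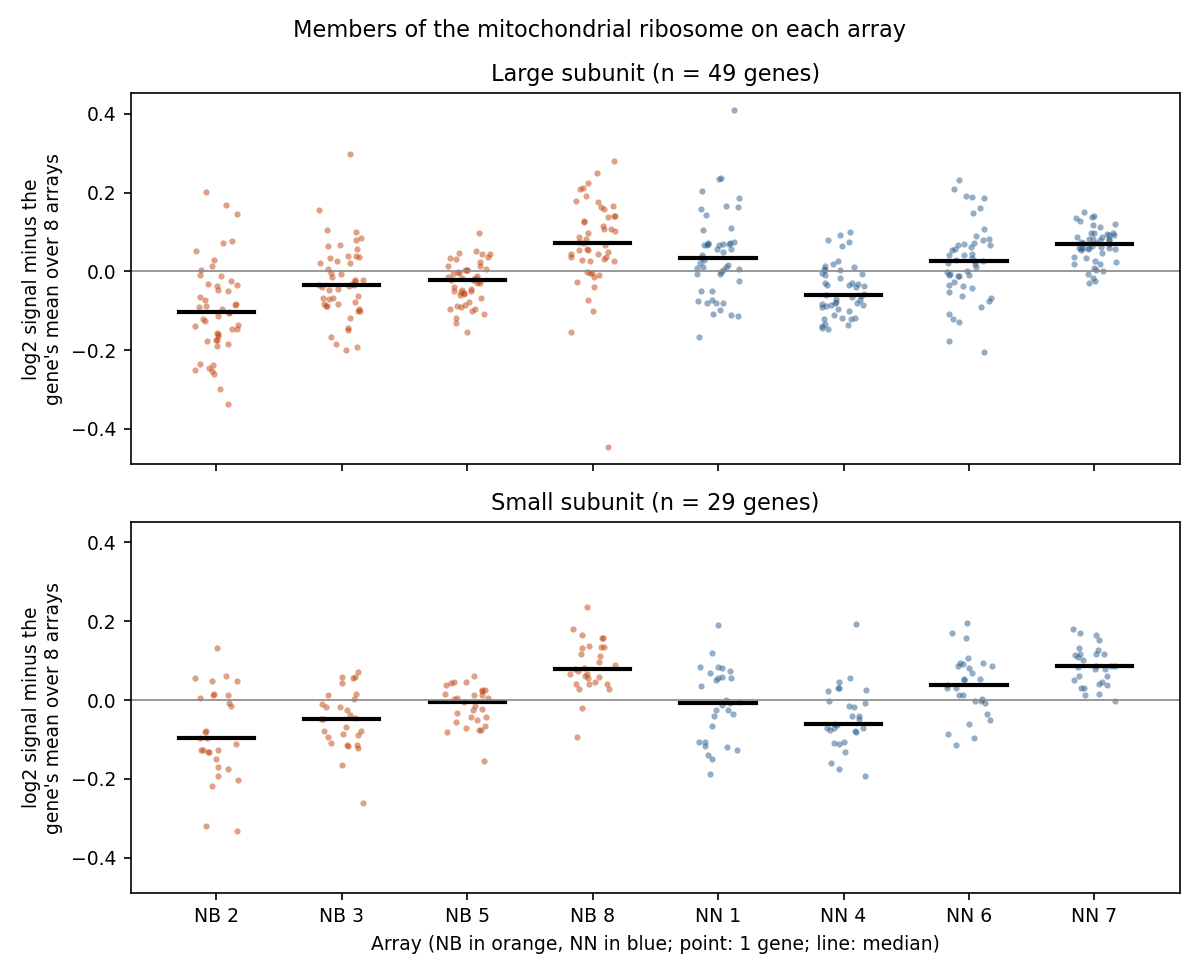
Deviation of each gene's log2 signal from its mean over 8 arrays, with NB arrays (orange) left of NN arrays (blue), for 49 large subunit genes (top) and 29 small subunit genes (bottom). Points are genes and lines are medians. With the 75th percentile scaling drawn here the medians are lowest on NB 2 and highest on NB 8 and NN 7 in both subunits, whereas NB 3 was lowest with quantile scaling and with the authors' values.

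None of the other genes of mitochondrial translation passed the test (background 0.00698% of all features) or reached an unadjusted p under 0.05 in limma (background 1.69%). Among so few genes, none is near these shares and says little about the lists. The 5 subunits with other symbols had 3 estimates below 0 and a median of −0.012. They include Ptcd3 (−0.07 ± 0.07, SE) and Dap3, which was first described as a cell death protein (0.01 ± 0.08). Of 26 assembly factors 20 lay below 0 (76.9%, beside 54.1% of all features), with a median of −0.034. The lowest was Mterf3, which binds mitochondrial DNA and is needed for ribosome assembly, at −0.18 ± 0.10, and the highest Tfb1m, which methylates the RNA of the small subunit, at 0.08 ± 0.15.

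Of 15 measured translation factors 11 lay below 0 (73.3%, beside 54.1% of all features), with a median of −0.046. They ran from Gfm2, which recycles the ribosome, at −0.13 ± 0.08, to the elongation factor Tsfm at 0.17 ± 0.19. Of 17 mitochondrial aminoacyl-tRNA synthetases 14 lay below 0, with a median of −0.045, led by Tars2 at −0.17 ± 0.12 and Lars2 at −0.17 ± 0.15. The 80 cytosolic ribosomal proteins, which form the ribosome of the cell body, were evenly split, with 39 below 0 and a median of 0.002. Whether these lists differ from each other was not tested.

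**Figure D5:**
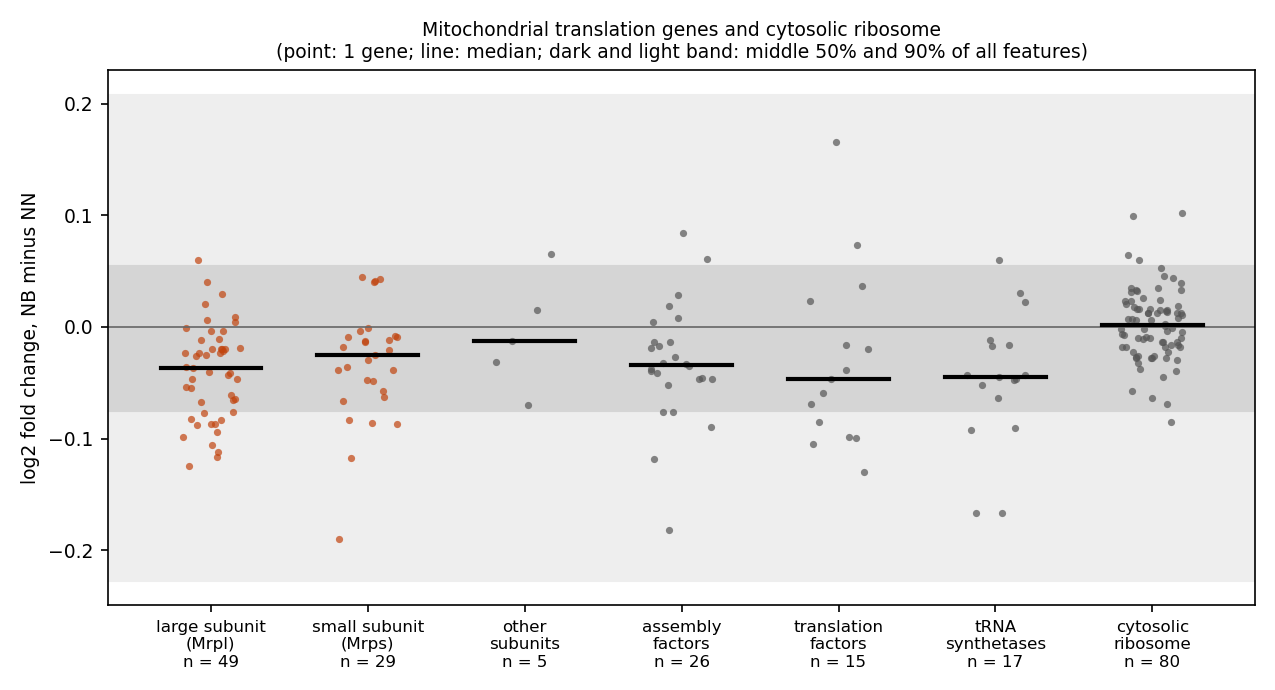
Log2 fold change (NB minus NN) of single genes in the mitochondrial ribosome (orange), the other lists of mitochondrial translation and the cytosolic ribosome (grey), with the median as a line. The shaded bands hold the middle 50% and 90% of all features. The medians of all lists lie within the darker band.

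All 8 hepatocyte markers were well above background on all arrays. So were 39654 of the 42985 features, so this cannot check the tissue label. The hepatocyte markers had a median fold change of −0.04, running from −0.30 to 0.18. Of these 8, 2 had an unadjusted p under 0.05 in limma (background 1.69% of all features), and none passed the adjusted threshold. The 7 Kupffer cell markers had a median of 0.18 with 6 above 0, and the 6 markers of recruited macrophages and monocytes had a median of 0.23 with all 6 above 0, while none of these 13 passed the test. The median deviation of the Kupffer list ran from −0.14 to 0.22 over NB arrays and from −0.21 to 0.04 over NN arrays. The 6 stellate cell markers had a median of 0.11 with 5 above 0. Among them 1 had an unadjusted p under 0.05 in limma (background 1.69%), and none passed the adjusted threshold. The 3 measured neutrophil markers had a median of 0.20 and varied widely between arrays, with median deviations of −0.90, 0.06, 0.84 and 0.33 on NB 2, 3, 5 and 8, against −0.37, −0.92, 0.29 and 0.60 on NN 1, 4, 6 and 7. On NB 2 and NN 4 the neutrophil markers and both ribosomal subunits were below 0, and on NB 8 and NN 7 above 0. The Kupffer list had the same signs there, with −0.14 on NB 2, −0.21 on NN 4, 0.12 on NB 8 and 0.04 on NN 7. Values on other arrays differed. The Kupffer list was highest on NB 3, at 0.22, where the large and small subunit medians were −0.03 and −0.05. The neutrophil list was highest on NB 5, where the large and small subunit medians were −0.02 and −0.01. It was below 0 on NN 1, where they were 0.03 and −0.01. With the authors' values the ribosomal genes were lowest on NB 3, where the neutrophil list stood at 0.01. Medians were near 0 for endothelial (0.0028), cholangiocyte (−0.023), lymphocyte (0.00014) and erythroid (0.048) markers, with no call and no unadjusted p under 0.05 in limma. The part of other cell types in the values of the ribosomal genes was not tested. Correlations between arrays ran from 0.989 to 0.995, and no array was left out.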

How the data were processed

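Cy3-labelled liver RNA was measured on 8 custom one-colour Agilent arrays of 1 slide, scanned on 1 date. Per the file headers, the deposited processed signal is a background-subtracted intensity from Agilent Feature Extraction 11.5.1.1, with no scaling between arrays; the submitters' processing notes name version 9.1. The authors' deposited value table holds intensity values whose sorted columns are identical. Outlier spots (248 to 621 an array) were treated as missing and none was saturated. The log2 intensity, computed here from the deposited signal, was set relative to each array's 75th percentile. Probes well above background on at least 4 arrays were kept (46848), the brightest for each gene, and genes were named by accession through the RefSeq table of GRCm38.p6, in which 31064 of 60273 probes had a symbol. Features with fewer than 2 values in a genotype were dropped. The two-sided test of NB minus NN used lmFit and eBayes of limma 3.58.1 (R 4.3.3) on all 42985 features, with p-values adjusted by Benjamini-Hochberg. The steps were tested on simulated data.

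The members, gene lists and tests were chosen with earlier results of these data known. The named members are, in each subunit, the 5 lower and up to 5 higher with the smallest p (the small subunit had only 4 higher), the 3 with the highest and the 3 with the lowest signal, any with separate groups, probes of differing sign or a place on chromosome 18, and 12 with a known role, plus, of each pathway list, the 2 lower and the 2 higher genes with the smallest p, given as far as the text needs. The other members named, the regions of the ribosome, the motifs and the fold bounds were chosen after values were seen. No gene of the mitochondrial genome was matched to a probe, so their transcripts were not analysed here. The alternatives were quantile and median scaling, normexp (offset 50), the authors' values, other filters for dim probes, the mean of probes, the variance model, slide row and column, subunit by structure, each array left out, and an adjusted p of 0.1.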

Additional observations from a re-analysis of the deposited data

Results flagged for a closer look

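The named members and the median deviations of both subunits gave 76 groups of 4 arrays, which were screened for an array far from the others of its genotype. There were 5 such arrays, where chance gives about 5% of groups. Mrpl13, a large subunit protein, had 3.19 on NB 8, with the other NB arrays between 2.96 and 2.99. Mrpl28, also of the large subunit, had 3.94 on NB 8, and the other NB arrays all had 3.76. Mrps5 had 2.67 on NB 5, with the others between 2.79 and 2.81. Mrps23 stood apart in both genotypes, with 2.46 on NB 3, where the other NB arrays had 2.66 to 2.67, and with 2.69 on NN 7, where the other NN arrays had 2.61 to 2.62. Values are log2 signals relative to the array's 75th percentile.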

How the results depend on the processing

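No member passed the adjusted threshold of 0.05 under any of the 18 alternatives fitted, nor at an adjusted p of 0.1. The number of members at an unadjusted p under 0.05 ran from 0 to 1 when each array was left out, and was 0 under the other alternatives. Counts of negative estimates depended on single arrays and on scaling. Leaving out each array gave 28 to 44 of 49 in the large subunit, with medians of −0.066 to −0.015, and 13 to 26 of 29 in the small subunit, with medians of −0.055 to 0.0054. The lowest counts, 28 and 13, came without NB 2, and 16 in the small subunit without NN 7. With the authors' values, 15 of the 29 small subunit estimates were negative, and with quantile scaling 31 of the 49 large and 21 of the 29 small. The cause was not tested. Of 648 values of the 36 named members under alternatives, 50 turned sign and none passed the threshold, and 17 members never turned sign. Many of the 648 could not turn. Slide row, slide column, the variance model and the other filters for dim probes left each member's estimate unchanged. The mean of probes could not change that of a member with 1 probe. The share of 50 in 648 is thus no measure of stability. The replicate numbers in the labels are not shared between the genotypes and give no pairs. Each slide column holds 1 array of each genotype, and with it as a block 0 members were called. The 42 and 25 negative estimates stayed as they were, since a block balanced in this way cannot change them. With 4 arrays a group, changes smaller than the intervals given could not be seen.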
